A study of Mus with 2 samples.

Results

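Dll1, Dll4, Jag1 and Jag2 encode Notch ligands, and Lfng encodes lunatic fringe, a glycosyltransferase that modifies Notch receptors and is not itself a ligand. These 5 genes, chosen by symbol, are 5 of the 28693 features counted in newborn mouse kidney cells, and each symbol matched 1 feature. In the Notch pathway a ligand on one cell engages a receptor on its neighbour, the receptor is cleaved, and the freed intracellular part joins the DNA-binding protein Rbpj to switch on targets such as the Hes and Hey genes. Fringe enzymes add sugars to the receptor and so change which ligands it answers to. In the developing kidney the pathway is known for its part in the segmentation of the early nephron, above all its proximal fate, and in blood vessels for its part in arterial identity.

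The kidneys were taken at P0, the day of birth, from mice of the genotype Rbpj c/- ; Foxd1cre/+. A Cre under Foxd1, a gene of the stromal progenitors that give rise to the renal interstitium, removed the floxed Rbpj allele there, and the other Rbpj allele was null throughout the animal. Of 4 libraries that the design names, the 2 mutant ones are described, and the 2 of Rbpj c/+ ; Foxd1cre/+ control kidneys were not analysed here. No effect of the genotype can therefore be read from any value below, and every comparison is between cell classes of the same mutant kidneys. The labels do not say whether a library is 1 kidney, 1 animal or a pool, so p-values speak only for these 2 libraries. They measure how differences between classes varied from library to library, with the spread estimated over all classes together.

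Each library was a droplet-based, 3' end single-cell library counted in unique molecular identifiers (UMIs), and held 163405630 and 135436576 UMIs. After removal of barcodes under 2000 UMIs, barcodes with over 10% mitochondrial UMIs and the barcodes most like doublets, 5910 and 4937 cells were kept, with medians of 11727.5 and 12196 UMIs. The libraries shared 5 cell barcodes among the kept cells. Cells were clustered without the 5 genes and without 34 other Notch pathway genes, and clusters were named from marker lists as 12 broad classes, whose names stand for cells like that type and were not checked by another method. The largest were nephron progenitors (1132 and 1162 cells), stroma (1202 and 968) and endothelium (746 and 497), and the smallest was the mural class (32 and 24). The name of the distal tubule class is unsure: of its sub-clusters, one of 60 cells had Aqp2, Aqp3 and Scnn1b, genes known from the collecting duct, among its leading genes, and one of 31 cells had a median of 98663 UMIs. Levels are given as CPM, the UMIs of a gene per 1000000 UMIs of the class in a library. In the distal tubule class the 8 ureteric markers summed to 1961 and 1311 CPM, above the 6 distal tubule markers at 1313 and 977. Its largest sub-cluster, of 70 cells, held 1 and 1 UMIs of Slc12a3, a marker on the distal tubule list. The 8 endothelial markers summed to 6155 and 5658 CPM in the endothelial class and to at most 99.3 in any other, and the 9 early nephron markers summed to 2536 and 2578 in the early nephron class. Those early nephron markers also reached 1080 and 958 CPM in the proximal tubule class and 1040 and 1066 in the loop of Henle class. Rbpj itself was counted in every class, at 24.95 and 24.3 CPM in the stroma and 48.0 and 48.7 in the early nephron. A 3' count does not show whether a transcript came from a deleted allele, since the exons removed are not stated, so Rbpj does not check the labels.

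The 5 genes fell into distinct distributions over the 12 classes. Dll1, Jag1 and Lfng were at their highest in the early nephron class, the renal vesicle and its descendants before they become podocytes or tubules. Dll4 and Jag2 were at their highest in the endothelium and low in every class of the nephron. Of all UMIs of a gene in kept cells, the early nephron class held 63.5% and 64.5% for Dll1, 47.5% and 52.9% for Jag1, and 41.9% and 43.4% for Lfng, in libraries 1 and 2. The endothelium held 93.9% and 91.8% of Dll4 UMIs and 89.8% and 84.0% of Jag2 UMIs. Levels are compared within a gene only, because a 3' count does not allow a level to be set against that of another gene.

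**Figure D1:**
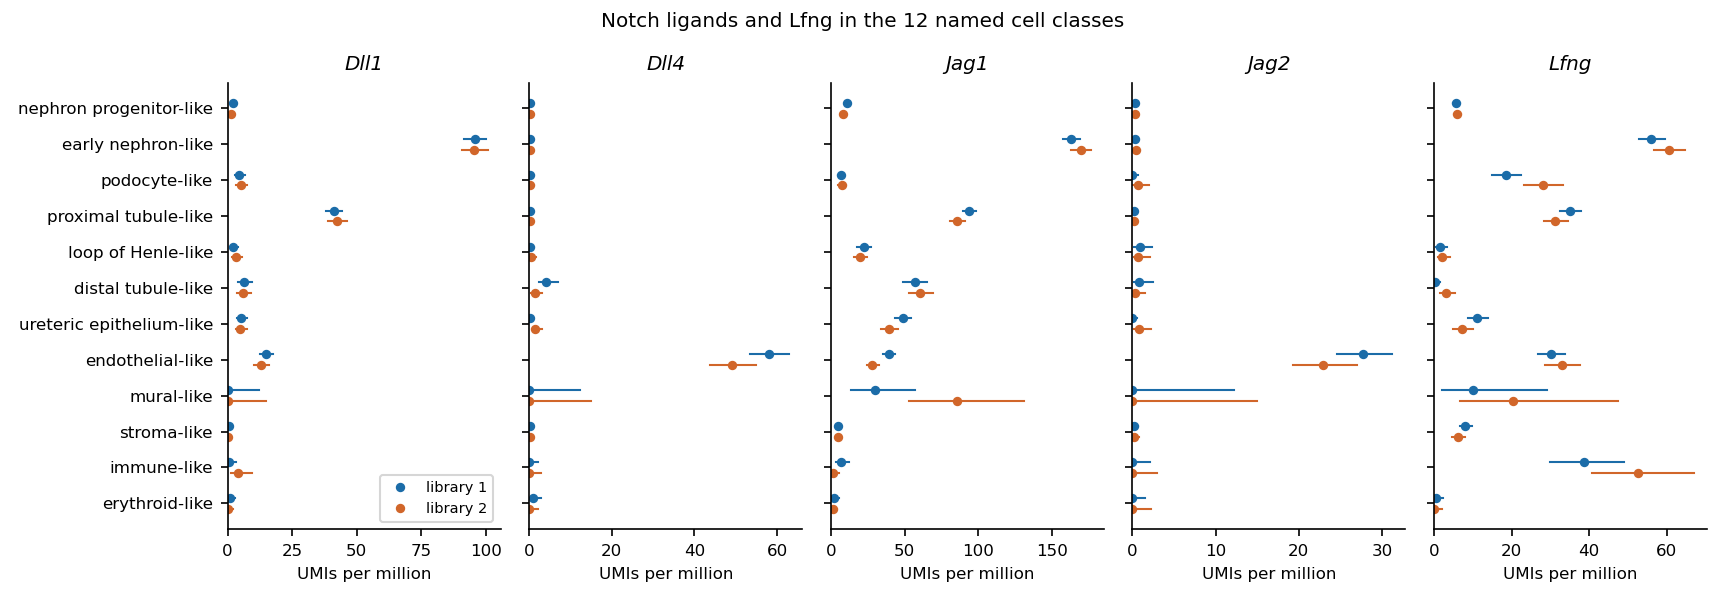
CPM (horizontal axes, linear, a separate scale for each gene) of Dll1, Dll4, Jag1, Jag2 and Lfng in 12 cell classes; points are the 2 libraries and lines are exact 95% Poisson intervals, which cover counting error only. Dll1 reached 95.8 and 95.7 in the early nephron and Dll4 reached 58.0 and 49.1 in the endothelium, and the mural class has wide intervals because it holds 32 and 24 cells.

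Dll1, one of the 2 Delta-type ligands here, was counted at 95.8 and 95.7 CPM in the early nephron, at 41.1 and 42.4 in the proximal tubule and at 15 and 12.9 in the endothelium. The libraries of these 3 classes did not overlap one another, but the place of the proximal tubule rested on which cells were called so. At a mitochondrial limit of 20% it held 8.74 and 6.95 CPM of Dll1, below the endothelium at 15.6 and 13.1, and it was also below the endothelium in both libraries at a minimum of 1000 UMIs and at a clustering resolution of 0.5. The distal tubule (6.39 and 6.06), ureteric epithelium (5.34 and 4.92) and podocytes (4.37 and 5.11) followed, and the last 2 of these could not be ordered. Nephron progenitors held only 2.24 and 1.49 CPM, stroma 0.569 and 0.213, and the mural class no UMI, which allows up to 9.96 and 12.2 CPM. Against the mean of the other 11 classes, Dll1 was higher in the early nephron with an adjusted p of 1.24e-19 by edgeR's quasi-likelihood test. No fold is given for that contrast, since its mean is taken on the log scale and includes the mural class at 0.

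Jag1, the Jagged-type ligand of the nephron, was the most widely spread of the ligands. It was counted at 163 and 169 CPM in the early nephron, at 93.6 and 85.6 in the proximal tubule and at 56.7 and 60.6 in the distal tubule. The mural class gave 29.9 and 85.5 CPM from 9 and 21 UMIs and so could not be placed between its neighbours. The ureteric epithelium held 48.6 and 39.4 CPM, the endothelium 39.1 and 28.2, and the loop of Henle 22.3 and 19.7. Nephron progenitors (11.3 and 8.18), podocytes (6.65 and 7.55) and stroma (5.04 and 4.57) were far lower. Against the mean of the other classes, Jag1 was higher in the early nephron by 2.86 ± 0.10 (SE) on the log2 scale, with an adjusted p of 1.95e-17 by edgeR's quasi-likelihood test, and by 3.52 at a clustering resolution of 0.5.

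Lfng was counted at 56.0 and 60.5 CPM in the early nephron. The immune class came next at 38.6 and 52.7 CPM, followed by the proximal tubule at 35.1 and 31.2 and the endothelium at 30.1 and 32.9, and the last 2 overlapped. Podocytes held 18.4 and 28.0 CPM. Stroma (8.13 and 6.17) and nephron progenitors (5.68 and 6.01) were low, and the loop of Henle (1.61 and 2.13) lower still. The distal tubule gave 0.278 and 3.03 CPM from 1 and 11 UMIs. Lfng was higher than the mean of the other classes in the early nephron, with an adjusted p of 1.62e-13, and in the immune class, with an adjusted p of 1.2e-08, both by edgeR's quasi-likelihood test. No fold is given for these contrasts, since the erythroid class, with 1 and 0 Lfng UMIs, enters the mean. Within the immune class, the cluster led by the macrophage genes C1qa, C1qb and Pf4 held 40.9 and 52.4 CPM of Lfng. The cluster led by Cma1, Lyz2, Cpa3 and Tpsb2, which mixes mast cell genes with general myeloid genes, held 34.6 and 53.3, so these clusters overlapped.

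Dll4, the Delta-type ligand of endothelium, was counted at 58.0 and 49.1 CPM there. The highest level counted in another named class was 4.17 CPM, in the distal tubule. Jag2, the other Jagged-type ligand, was counted at 27.8 and 22.9 CPM in the endothelium, and the highest level counted in another class was 0.918, in the loop of Henle. The immune class held no UMI of Dll4 or Jag2, which allows up to 1.75 and 2.39 CPM of each, and neither did the mural class, where up to 9.96 and 12.2 CPM are allowed. Against the mean of the other classes, the adjusted p by edgeR's quasi-likelihood test was 6.97e-18 for Dll4 and 1.02e-14 for Jag2 in the endothelium. All 5 genes were called higher in the endothelium in that contrast, where 31.4% of the 15020 genes tested were. That count includes Jag1, whose level was higher in the early nephron, proximal tubule, distal tubule and ureteric epithelium in both libraries. In the early nephron 3 of the 5 were called higher, against 30.5% of all genes, and in the proximal tubule the same 3 (31.4% of all genes). The proximal tubule call of Jag1 was lost at a clustering resolution of 0.5.

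Set against the mean of the other classes in this way, Jag1 was called higher in 6 of the 12 classes and lower in 4, and Lfng higher in 5 and lower in 3. Besides the early nephron, proximal tubule and endothelium, Jag1 was higher in the distal tubule (1.18 ± 0.14 on the log2 scale, SE), the ureteric epithelium (0.80 ± 0.14) and the mural class (1.31 ± 0.39), where 24.5%, 28.3% and 10.1% of all genes were called higher. It was lower in stroma (-2.56 ± 0.22), immune cells (-2.48 ± 0.38), podocytes (-2.06 ± 0.23) and nephron progenitors (-1.43 ± 0.17), where 16.4%, 20.3%, 20% and 18% of all genes were called lower. Lfng was higher in podocytes (adjusted p = 0.000119 by edgeR's quasi-likelihood test), where 32.2% of all genes were, and in the immune class, where 26.2% were. It was lower in the distal tubule (12.7% of all genes), the loop of Henle (13.3%) and nephron progenitors. Podocytes were thus called above the log-scale mean of the other classes in Lfng and below it in Jag1. The Lfng mean is lowered by the erythroid, distal tubule and loop of Henle classes, which held few Lfng UMIs. At 18.4 and 28.0 CPM, podocyte Lfng was below the early nephron, immune, proximal tubule and endothelial classes in both libraries.

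The small distal tubule count of Dll4 was uneven. It came to 15 UMIs in library 1 and 5 in library 2, or 4.17 and 1.38 CPM, from 84 and 77 cells. Of these UMIs, 11 and 4 lay in the sub-cluster of 60 cells with collecting duct genes. Dll4 in the early nephron rested on 3 and 4 UMIs, so the ratio of distal tubule to early nephron over both libraries was 13.4 (exact 95% interval 5.45 to 37.6, counting error only). The log2 difference was 3.61 ± 0.69 (SE) with an adjusted p of 0.000156 by edgeR's quasi-likelihood test, and it was 2.19 or 4.55 with 1 library left out. Barcodes of 10 to 100 UMIs, too few for a cell, gave 7.85 and 4.84 CPM of Dll4 from 6 and 4 UMIs, above both distal tubule values. The summed endothelial markers were 36.1 and 53.1 CPM in the distal tubule and 38.4 and 33.5 in the early nephron.

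Counts in cells that should lack these genes give the background. In the erythroid class, whose medians were 4370.5 and 4482 UMIs, 0.418% and 0% of cells had a Dll1 UMI, 1.26% and 0.56% a Jag1 UMI, 0.418% and 0% a Dll4 UMI, 0.209% and 0% an Lfng UMI, and none had a Jag2 UMI. In the early nephron, with medians of 21427 and 19972 UMIs, the shares were 52.2% and 46.6% for Dll1, 88.5% and 86.6% for Jag1 and 54.8% and 50% for Lfng. With every cell thinned to 4000 UMIs, and 0 and 3 shallower early nephron cells left out, these became 26.3% and 24.5% for Dll1, 43.3% and 45.5% for Jag1 and 19.3% and 18.9% for Lfng. At the same depth the erythroid class, with 217 and 151 cells left out, gave 0.383% and 0% for Dll1 and for Dll4, 0.383% and 0.485% for Jag1, and 0 of 261 and 206 cells for Lfng, which allows a share of up to 1.15% and 1.46%. In the endothelium 14.4% and 13.7% of thinned cells had a Dll4 UMI (27.2% and 26.0% unthinned) and 8.58% and 6.97% a Jag2 UMI (18.9% and 17.1% unthinned), with 93 and 52 cells left out.

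The next question was how the ligands and Lfng changed where nephron progenitors give way to the early nephron. Dll1, Jag1 and Lfng were all higher in the early nephron. The ratio of CPM was 42.8 and 64.1 for Dll1, 14.4 and 20.7 for Jag1, and 9.86 and 10.1 for Lfng in libraries 1 and 2. The log2 differences were 5.49 ± 0.15 (SE; adjusted p = 2.05e-18), 3.93 ± 0.14 (adjusted p = 6.47e-17) and 3.15 ± 0.16 (adjusted p = 3.06e-14) by edgeR's quasi-likelihood test. At a mitochondrial limit of 5% Dll1 was 4.86 and Lfng 2.52, and without doublet removal Jag1 was 3.33. These are 3 of the 5 genes, in a comparison where 21.8% of all genes tested were called higher and 25.4% lower. Dll4 (15 UMIs on both sides together) and Jag2 were not called, with Jag2 at 0.293 and 0.298 CPM in progenitors and 0.363 and 0.409 in the early nephron. Within the progenitors, a cluster led by Fam132a, Col9a1 and the early differentiation gene Wnt4 (347 and 305 cells) held 25.2 and 13.6 CPM of Jag1, and its Dll1 was 0.747 and 2.27.

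Other pathway genes in the same comparison were taken by role. All 6 of the target genes listed were higher, led by Hes5 at 7.52 ± 0.26 (SE) on the log2 scale and Nrarp at 4.67 ± 0.22, with a median of 1.26 over the 6. Of the 4 receptors, Notch1 (2.33 ± 0.10) and Notch3 (0.998 ± 0.175) were higher and 1 was lower. Among the 5 genes listed under ligand endocytosis, 2 were higher, Neurl3 (2.15 ± 0.26) and Neurl1b (1.84 ± 0.25), and 2 were lower. Of the 3 other ligands and fringes tested, Dlk1 (-2.08 ± 0.61) and Mfng (-1.10 ± 0.38) were lower. In all, 12 of the 33 pathway genes tested were higher and 10 lower, and their median was 0.02 against -0.07 for all genes.

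**Figure D2:**
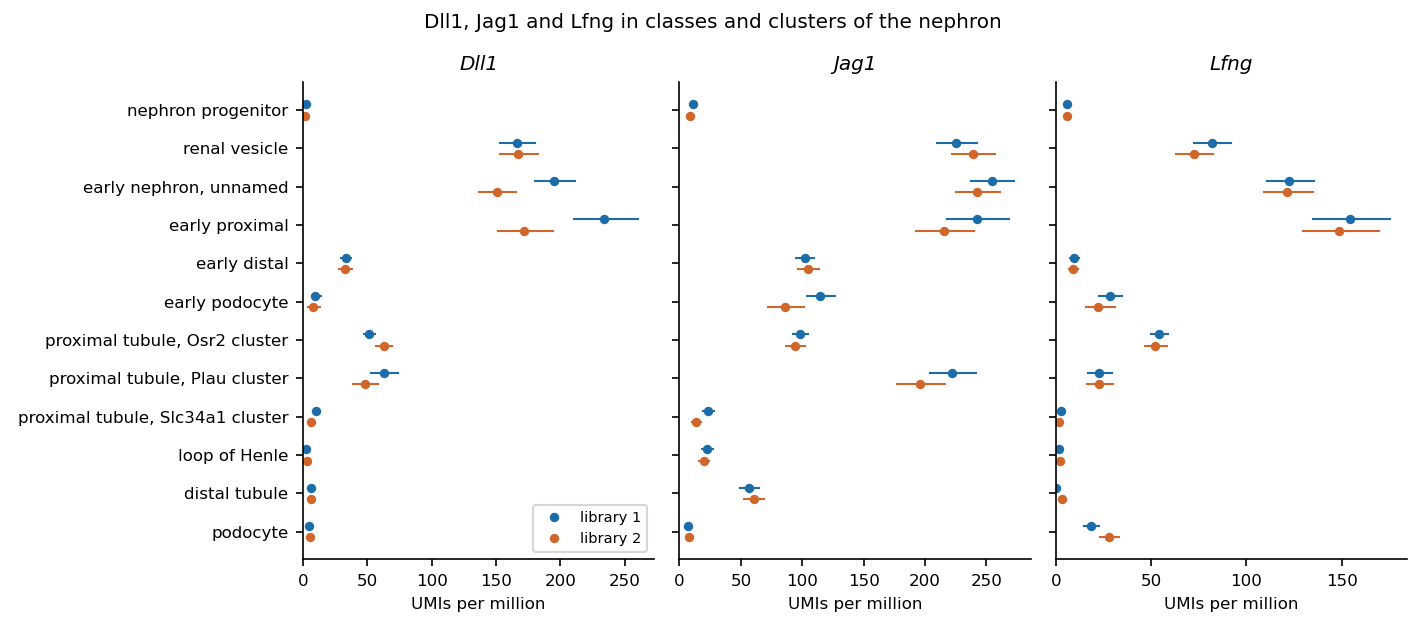
CPM (linear axes) of Dll1, Jag1 and Lfng in nephron progenitors, in 5 groups of early nephron cells, in 3 proximal tubule clusters and in later classes; points are the 2 libraries and lines are exact 95% Poisson intervals. Lfng reached 154 and 149 in the early proximal group and 9.53 and 8.97 in the early distal group.

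Re-clustering divided the early nephron cells into renal vesicle, early proximal, early distal and early podocyte groups and a group that tied between renal vesicle and early proximal markers and was left unnamed. Dll1 was counted at 234 and 172 CPM in the early proximal group, at 195 and 150 in the unnamed group and at 166 and 167 in the renal vesicle group. The early proximal group thus lay above the renal vesicle group in both libraries, while the unnamed group overlapped each of them. The early distal group held 33.1 and 32.8 CPM and the early podocyte group 9.62 and 7.41. Lfng gave a clearer order, at 154 and 149 CPM in the early proximal group, 123 and 121 in the unnamed group and 81.8 and 72.4 in the renal vesicle group. It then fell away to 28.2 and 22.2 CPM in the early podocyte group and 9.53 and 8.97 in the early distal group. Jag1 differed least, at 255 and 243 CPM in the unnamed group, 226 and 239 in the renal vesicle group and 242 and 215 in the early proximal group. It stayed at 102 and 105 in the early distal group and at 115 and 85.9 in the early podocyte group.

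Early distal cells were compared with early proximal cells to ask whether these genes differ along the proximal to distal axis. Lfng was lower in the early distal group by 16.2 and 16.6 times, a log2 difference of -4.10 ± 0.18 (SE; adjusted p = 8.41e-20). Dll1 was lower by 7.07 and 5.23 times (-2.69 ± 0.16, adjusted p = 1.92e-16), and Jag1 by 2.38 and 2.06 times (-1.22 ± 0.13, adjusted p = 3.63e-09), all by edgeR's quasi-likelihood test. Thus 3 of 5 genes were lower, where 7.93% of the 14659 genes tested were called lower and 8.67% higher. The Jag1 difference was -0.28 with an adjusted p of 0.114 when the mitochondrial limit was 20%, and -0.26 with an adjusted p of 0.151 without doublet removal. Both other differences shrank when cells were selected otherwise, Dll1 to between -0.99 and -1.63 under 6 alternatives, the weakest with single cells gated by markers, and Lfng to between -2.76 and -3.37, and both kept their calls. Receptors and targets were divided between the groups: Notch2 (-1.10 ± 0.22) was lower and Notch3 (1.72 ± 0.35) higher in early distal cells, and of 6 targets Heyl (-2.32 ± 0.21) was among 4 that were lower and Hey2 (2.81 ± 0.74) among 2 that were higher.

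A comparison of early podocytes with early proximal cells was added after the levels had been seen. Dll1 was lower in early podocytes by 24.3 and 23.2 times (log2 difference -4.66 ± 0.23 (SE), adjusted p = 4.25e-18) and Lfng by 5.46 and 6.68 times (-2.67 ± 0.19, adjusted p = 1.69e-14). Jag1 was lower by 2.11 and 2.51 times (-1.30 ± 0.15, adjusted p = 4.19e-09). These tests were edgeR's quasi-likelihood test, and 11.8% of all genes were called lower and 12.1% higher. The Jag1 call was lost under 3 alternatives, with a difference of -0.03 and an adjusted p of 0.906 at a mitochondrial limit of 20%. Dll1 and Lfng kept their calls but were smaller under 6 alternatives in the selection or grouping of cells, down to -1.89 for Dll1 and -0.70 for Lfng at a clustering resolution of 2. Of 6 targets, 2 were lower, led by Hes5 (-5.72 ± 0.36 on the log2 scale), and 2 were higher, led by Hey2 (4.14 ± 0.66).

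From the early nephron to the podocyte, the filtering epithelial cell of the glomerulus, all 3 genes of the nephron were lower. Dll1 was lower in podocytes by 21.9 and 18.7 times and Jag1 by 24.5 and 22.4 times, while Lfng was lower by 3.04 and 2.16 times. The log2 differences were -4.29 ± 0.18 (SE; adjusted p = 1.43e-15), -4.51 ± 0.19 (adjusted p = 5.19e-16) and -1.29 ± 0.17 (adjusted p = 3.65e-07) by edgeR's quasi-likelihood test. Of all genes, 32.1% were called lower and 33.4% higher in that comparison. The Lfng difference was -0.62 at a mitochondrial limit of 5%, and that of Jag1 was -3.62 with single cells gated by markers. The difference between the genes' changes was not tested. Podocytes held 97 and 126 Lfng UMIs and 35 and 34 Jag1 UMIs, and the share of thinned cells with an Lfng UMI was 6.14% and 11.3%. The Lfng level of podocytes, 18.4 and 28.0 CPM, was close to that of barcodes of 10 to 100 UMIs (17.01 and 27.8). The summed early nephron markers were 111 and 137 CPM in podocytes, and their part in the podocyte levels was not tested.

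Podocytes also had lower levels of 5 of the 6 targets, led by Hes5 (-7.66 ± 0.40) and Heyl (-5.79 ± 0.35), and of the receptors Notch1 (-2.91 ± 0.13) and Notch3 (-3.33 ± 0.36), while 1 receptor was higher. Of the 11 genes of receptor glycosylation and cleavage, 8 were higher and 2 lower, the higher ones including the gamma-secretase subunits Aph1a (1.42 ± 0.08) and Ncstn (1.14 ± 0.12). All these differences were on the log2 scale. Over the 33 pathway genes tested the median was 0.01, against -0.01 for all genes.

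The proximal tubule class was a mixture of stages. A cluster led by Osr2, a transcription factor of the proximal nephron precursor, made up 331 and 220 of its 559 and 387 cells. It held 51.6 and 63.0 CPM of Dll1, 98.2 and 94.3 of Jag1 and 54.3 and 52.2 of Lfng. The cluster with Slc34a1, a phosphate transporter of the differentiated tubule, among its leading genes held 9.99 and 5.81 CPM of Dll1, 23.5 and 13.1 of Jag1 and 2.74 and 1.51 of Lfng. All 3 genes were lower there in both libraries, a difference that was not tested. A cluster led by Plau and Aadat (103 and 76 cells) had yet another profile, with Jag1 at 222 and 196 CPM, close to the renal vesicle, but Lfng at only 22.7 and 22.5.

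As a class, the proximal tubule was below the early nephron for the same 3 genes, by 2.33 and 2.26 times for Dll1, 1.74 and 1.98 times for Jag1 and 1.60 and 1.94 times for Lfng. The adjusted p-values by edgeR's quasi-likelihood test were 1.1e-08, 6.1e-06 and 0.000131, for log2 differences of -1.09 ± 0.11, -0.78 ± 0.12 and -0.69 ± 0.14 (SE), in a comparison where 26% of all genes were lower. The class comparison depended on which cells entered each class. At a mitochondrial limit of 5%, which left 169 and 116 proximal tubule cells, Dll1 in that class was 151 and 123 CPM, and the differences were 1.11 (adjusted p = 5.43e-08) for Dll1, 0.03 (adjusted p = 0.904) for Jag1 and 0.97 (adjusted p = 5.38e-07) for Lfng. At a limit of 20% Dll1 was 8.74 and 6.95 CPM in 300 and 270 cells, and its log2 difference was -3.36. Most other selections of cells made the differences larger than those given first, down to -3.61 for Dll1, -2.93 for Jag1 and -3.88 for Lfng at a clustering resolution of 0.5. All 6 targets were lower in the proximal tubule than in the early nephron, led by Hes5 (-3.90 ± 0.19) and Hey1 (-3.05 ± 0.17).

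In the loop of Henle class and the distal tubule class, whose name is unsure, Dll1, Lfng and Jag1 were all lower than in the early nephron. Barcodes of 10 to 100 UMIs gave 27.5 and 43.5 CPM of Jag1, above the loop of Henle (22.3 and 19.7) and below the distal tubule (56.7 and 60.6) in both libraries. Relative to the early nephron, the loop of Henle was lower in Dll1 by 46.4 and 28.8 times, in Lfng by 34.9 and 28.4 times and in Jag1 by 7.32 and 8.60 times. With single cells gated by markers the log2 difference of Jag1 in the loop of Henle was -2.01, and at a minimum of 1000 UMIs those of Dll1 and Lfng were -5.82 and -5.88. The distal tubule was lower in Dll1 by 14.98 and 15.8 times and in Jag1 by 2.87 and 2.79 times, and without doublet removal its log2 difference of Dll1 was -3.23 in place of -3.97. Its Lfng rested on 1 and 11 UMIs, with a ratio to the early nephron over both libraries of 0.0286 (exact 95% interval 0.0148 to 0.0501, counting error only) and a log2 difference that was -7.65 or -4.39 with 1 library left out. The log2 differences of Jag1 were -2.96 ± 0.16 (SE; adjusted p = 3.34e-13) in the loop of Henle and -1.54 ± 0.14 (adjusted p = 3.81e-09) in the distal tubule by edgeR's quasi-likelihood test. Dll1 and Lfng had adjusted p-values of at most 1.26e-12 in the loop of Henle and 2.6e-12 in the distal tubule by the same test. The background share of genes called lower was 22.8% in the loop of Henle, where 3 of the 5 were, and 21.8% in the distal tubule, where the same 3 were lower and Dll4 was higher (25% of all genes). In each of these 2 classes 5 of the 6 targets were lower and none higher, with Hes5 at -5.81 ± 0.33 and -5.63 ± 0.34 on the log2 scale.

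**Figure D3:**
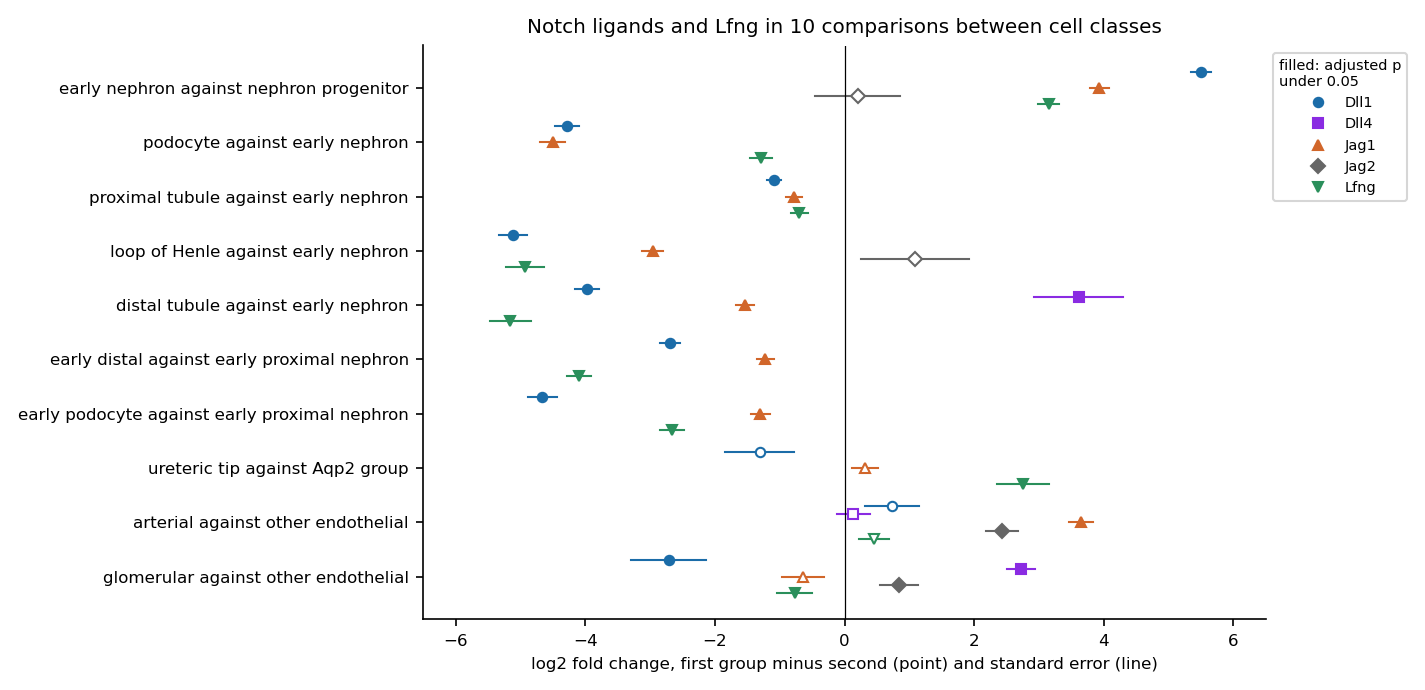
Log2 fold changes (points, horizontal axis) with standard errors (lines) of the 5 genes in 10 comparisons between cell classes by edgeR's quasi-likelihood test; filled symbols have an adjusted p under 0.05, and genes with under 20 UMIs in all or under 5 on one side are not drawn. Lfng lies at -4.10 in early distal against early proximal nephron, and Jag1 at 3.65 in arterial against other endothelial cells.

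The ureteric epithelium, the branching tree that becomes the collecting ducts, carried Jag1 in both of its named groups. The tip group was set against a group that scored highest for collecting duct markers, called the Aqp2 group here because its name is unsure. The larger of its 2 sub-clusters (84 cells) was led by Sprr2f, Upk3a, Psca and Sprr1a, genes known from urothelium, beside Aqp2 of the collecting duct. Jag1 was 53.5 and 40.2 CPM at the ureteric tip and 41.5 and 33.1 in the Aqp2 group. Its log2 difference was 0.31 ± 0.20 (SE), with an adjusted p of 0.235 by edgeR's quasi-likelihood test. The ratio over both libraries had an exact 95% interval of 1.06 to 1.57, which covers counting error only. Lfng was higher at the tip, at 21.8 and 17.2 CPM against 2.65 and 3.21, or 8.23 and 5.34 times (2.75 ± 0.40, adjusted p = 4.41e-07). Barcodes of 10 to 100 UMIs gave 27.5 and 43.5 CPM of Jag1 and 17.01 and 27.8 of Lfng, so in library 2 neither group exceeded them in either gene. Dll1 rested on 13 and 0 UMIs at the tip and 20 and 17 in the Aqp2 group, and was not called (adjusted p = 0.0514). Of all genes, 17.8% were called higher at the tip and 18.9% lower.

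Dll4 was called lower at the tip (adjusted p = 0.0259 by edgeR's quasi-likelihood test), but from no UMI at the tip and 1 and 7 in the Aqp2 group, 7 of them in 1 library, so no fold is given. The limit for no UMI at the tip was 1.06 CPM in library 1 and 1.98 in library 2. Of the 33 other pathway genes tested, 3 were higher and 11 lower at the tip, including Notch2 (-0.83 ± 0.24) and Notch3 (-0.92 ± 0.28).

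The endothelial class was divided into arterial (116 and 71 cells), glomerular (48 and 28) and plexus and venous (168 and 91) groups, and 414 and 307 cells were left unnamed. The arterial group was led by the elastin gene Eln, with Fbln5, the contractile gene Acta2 and the neutrophil gene S100a9 also among its leading 10 genes and no marker of the arterial list among them. The 5 arterial markers summed to 1644 and 1875 CPM there and to at most 630.2 in the other groups. The 6 mural markers summed to 777 and 413 CPM in the arterial group, 218 and 45.3 in the glomerular group, 37.1 and 11.9 in the unnamed cells and 11.3 and 8.79 in the plexus and venous group, against 27258 and 22632 in the mural class. The 8 podocyte markers summed to 922 and 947 CPM in the arterial group and to at most 662.6 in the other groups. S100a9 rested on 344 UMIs in library 1 and 1 UMI in library 2 in the arterial group. The glomerular group was led by Dlk1, Plat and Ehd3. The 4 plexus and venous markers summed to 2929 and 2710 CPM in the group of that name and to 2564 and 3373 in the glomerular group. In library 2 they were thus higher in glomerular cells, and the plexus and venous name is unsure. Jag1 was 201 and 120 CPM in arterial cells and 6.14 and 4.88 in plexus and venous cells. The mural class itself held 29.9 and 85.5 CPM of Jag1, below the arterial group in both libraries, and no UMI of Jag2, and the part of mural RNA in the arterial levels was not tested. Jag2 was 93.1 and 81.9 CPM in arterial cells, 37.7 and 47.5 in glomerular cells and 6.65 and 4.88 in plexus and venous cells. Dll4 was ordered otherwise, at 182 and 227 CPM in glomerular cells, 50.9 and 46.4 in arterial cells and 8.19 and 11.7 in plexus and venous cells. In thinned cells 58.1% and 56.5% of the glomerular group had a Dll4 UMI.

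**Figure D4:**
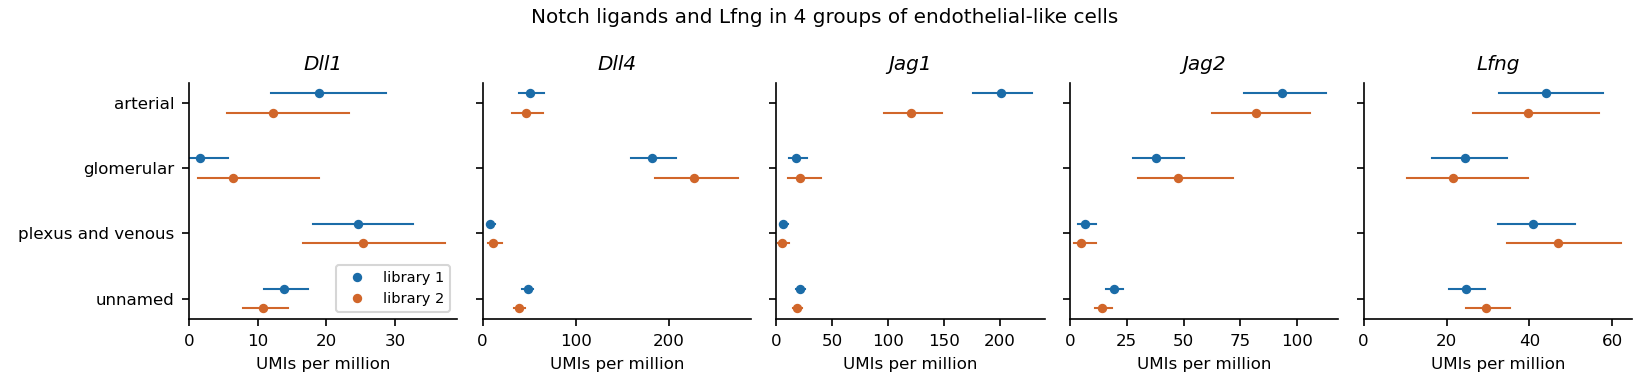
CPM (linear axes, a separate scale for each gene) of the 5 genes in 4 groups of endothelial-like cells; points are the 2 libraries and lines are exact 95% Poisson intervals, which cover counting error only. Dll4 was 182 and 227 in glomerular cells, and Jag1 was 201 and 120 and Jag2 93.1 and 81.9 in arterial cells.

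Arterial cells exceeded the other endothelial cells in Jag1 by 11.4 and 7.33 times and in Jag2 by 4.88 and 5.34 times. Against the mean of the other 3 groups the log2 differences were 3.65 ± 0.19 (SE; adjusted p = 3.73e-18) and 2.43 ± 0.25 (adjusted p = 2.73e-09) by edgeR's quasi-likelihood test. Hence 2 of the 5 genes were called higher, where 6.37% of all genes were. The size rested on which cells were called arterial: when sub-list markers were not counted with their class, the differences were 1.33 (adjusted p = 0.0112) for Jag1 and 1.20 (adjusted p = 0.0335) for Jag2, and under 3 other selections of cells Jag1 reached up to 4.52. Dll4 was not called, at 50.9 and 46.4 CPM in arterial cells against 58.9 and 49.5 in the others, and neither were Dll1 and Lfng. The arterial group also had higher Hey2 and Hey1 (2.69 ± 0.28), targets known from arterial endothelium, and higher Notch4 (0.69 ± 0.14), while Dlk1 was lower (-5.91 ± 1.04). Hey2 rested on 23 and 11 UMIs in arterial cells. No fold is given for it, since the plexus and venous group, with no Hey2 UMI, enters the mean.

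A comparison of glomerular with other endothelial cells was added after the levels had been seen. Dll4 was higher by 4.6 and 6.42 times, a log2 difference of 2.73 ± 0.21 (SE) with an adjusted p of 3.86e-12 by edgeR's quasi-likelihood test, and 1.98 with single cells gated by markers. Jag2 was higher by 1.43 and 2.26 times (0.83 ± 0.29, adjusted p = 0.0404), and that call was lost under 7 alternatives. The Jag2 difference was larger, at 1.58, when sub-list markers were not counted with their class. With Dll4 and Jag2, 2 of the 5 genes were higher, against 10.3% of all genes. Dll1, from 2 and 3 UMIs, was lower (-2.71 ± 0.58, adjusted p = 0.000481), with a ratio over both libraries of 0.185 (exact 95% interval 0.0595 to 0.438, counting error only). Its log2 difference was -3.67 or -1.33 with 1 library left out, and the call was lost when single cells were gated by their markers in place of clustering (-0.60, adjusted p = 0.558). Lfng, at 24.3 and 21.6 CPM against 31.0 and 33.8 in the others, was lower (-0.77 ± 0.27, adjusted p = 0.0389), a call lost under 3 alternatives, and 10% of all genes were called lower. The Lfng difference was larger, at -1.57, without cells of over 50000 UMIs. Of 33 other pathway genes 15 were higher and 1 lower, among them Dlk1 (7.20 ± 0.30), Notch4 (1.05 ± 0.14) and the coactivator Maml3 (1.56 ± 0.14), with a median of 0.59 against -0.05 for all genes. The receptor Notch3 and the targets Heyl and Hey2 were also higher. No fold is given for them, since arterial cells held no Notch3 or Heyl UMI and plexus and venous cells no Hey2 UMI. Hey2 rested on 13 and 6 UMIs in glomerular cells. Notch3 rested on 15 and 0 UMIs in glomerular cells and Heyl on 7 and 0, all in library 1, where the mural markers were also higher. Both genes were higher in the mural class than in the mean of the other classes (3.91 ± 0.39 and 2.24 ± 0.62) and lower in the endothelium (-2.99 and -2.90). The part of mural RNA in the glomerular values was not tested.

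The plexus and venous group had the highest Dll1 among endothelial groups, at 24.6 and 25.4 CPM, and 41.0 and 46.9 CPM of Lfng. Glomerular cells held 1.57 and 6.47 CPM of Dll1. Among the unnamed endothelial cells, the sub-cluster led by Aqp1 and Scin (81 and 53 cells) held 63.4 and 80.4 CPM of Jag1 and 36.5 and 31.3 of Jag2, and the dividing sub-cluster led by Top2a and Mki67 (102 and 114 cells) held 8.12 and 6.36 CPM of Jag1 but 52.6 and 38.2 of Dll4. The unnamed endothelial cells thus held sub-clusters with unlike levels of the ligands, untested. Another sub-cluster, led by haemoglobin genes (161 and 98 cells), had 55.1 and 44.6 CPM of Dll4.

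Whether 2 of the genes were counted in the same cells was examined at 4000 UMIs per cell. In the early nephron 9.45% and 9.54% of cells had UMIs of both Dll1 and Lfng, against 5.07% and 4.62% for the product of the single shares. For Dll1 and Jag1 the share was 15.8% and 15.7%, against 11.4% and 11.1%. In early proximal cells 20% and 18.7% had both Dll1 and Lfng, against a product of 20.3% and 16.5%. In the renal vesicle group the observed share, 14.3% and 13.7%, was above the product of 8.75% and 8.84%, from 14 and 14 cells. In the endothelium Jag1 and Jag2 were found together in 1.53% and 2.25% of cells (10 and 10 cells), against 0.788% and 0.626%. Dll1 and Dll4 were found together in 0.613% and 0.674% (4 and 3 cells), against 1.04% and 0.832%. These shares were not tested, since cells of 1 library are not replicates.

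**Figure D5:**
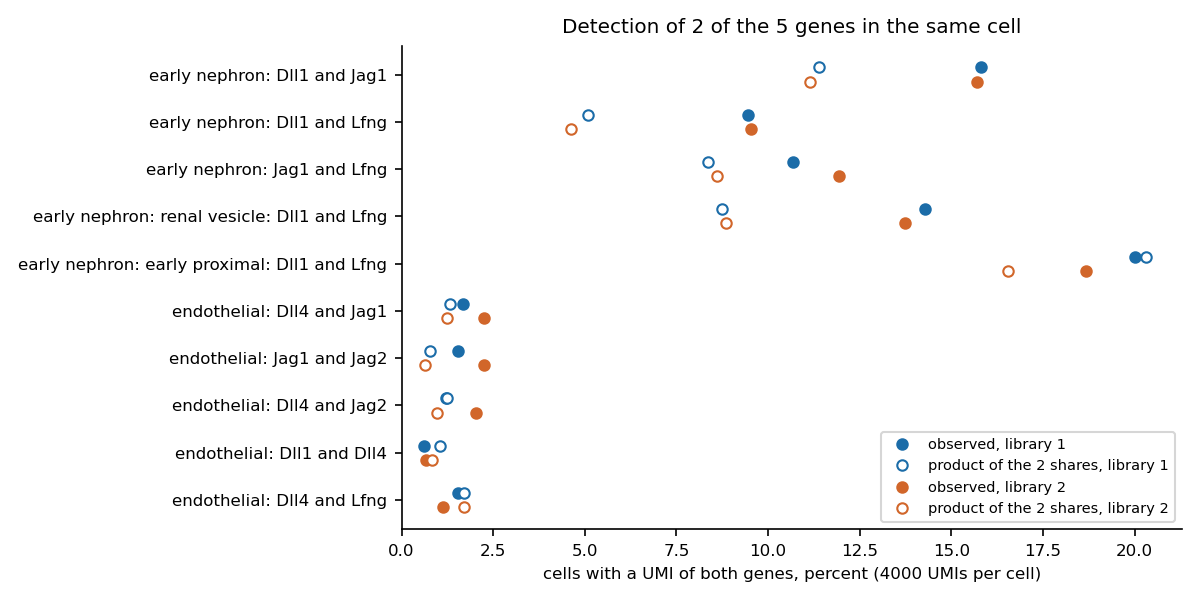
Percent of cells with a UMI of both named genes (filled) and the product of the 2 single shares (open) in each library, with cells thinned to 4000 UMIs. In the early nephron Dll1 with Lfng was observed in 9.45% and 9.54% of cells against products of 5.07% and 4.62%, and in early proximal cells the 2 values were 20% and 18.7% against 20.3% and 16.5%.

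How the UMIs of a gene were spread over early nephron cells was described at 4000 UMIs per cell. The 10% of cells with the most UMIs of a gene held 64.3% and 67.6% of them for Lfng, 60.7% and 64.7% for Dll1 and 42.3% and 38.8% for Jag1. Such a share rises as a gene's level falls, so these are not compared between genes, and a single cell held at most 8 and 7 Dll1 UMIs. The variance of Dll1 UMIs over cells was 1.92 and 2.27 times their mean, a ratio that is 1 for random counts of a common level. For Jag1 it was 1.41 and 1.17, and for Lfng 1.55 and 1.55.

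Genes with the pattern most like each of the 5 were ranked by Pearson's r of log2 CPM over 21 classes and groups, taking the lower r of the libraries, among 13810 genes. The classes share 2 libraries and differ in depth, so these values describe and do not test. Fibcd1 (0.85 and 0.82), Fam167a (0.82 and 0.81) and Akr1c18 (0.83 and 0.79) were nearest to Dll1. Nos2 (0.97 and 0.96), 8430408G22Rik and Cd300lg were nearest to Dll4, and 8430408G22Rik (0.97 and 0.96), Palmd and Fam124b to Jag2. Emid1 (0.82 and 0.85), Prss23 and Epha4 were nearest to Jag1, and Fabp5 (0.78 and 0.81), Asap1 and Chn2 to Lfng. Over the 12 broad classes the nearest genes were others for most of the 5: Dll4 was then nearest to Jag2 (0.95 and 0.97), while Emid1 stayed nearest to Jag1 (0.96 and 0.92).

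In the gene annotation of the build GRCm38.p6, all 5 genes are protein coding. Dll1 lies on chromosome 17 from 15367354 to 15376932, Lfng on chromosome 5 from 140607341 to 140615545, and Jag2 on chromosome 12 from 112907803 to 112929812. Dll4 (119325784 to 119335666) and Jag1 (137081451 to 137116520) are both on chromosome 2.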

How the data were processed

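Single cells from 2 kidney libraries were counted by the authors with Cell Ranger 6.0.1 on the build mm10, per the submitters' processing notes. The headers of the deposited matrices name Cell Ranger 4. The deposited values are counts of UMIs per gene and barcode, unfiltered, over 2720964 and 2654938 barcodes, with no normalization. Barcodes with at least 2000 UMIs (83.8% and 82.0% of UMIs) and at most 10% mitochondrial UMIs were kept, and the 310 and 212 barcodes with the highest Scrublet scores (4.98% and 4.12%, a number set at 0.8% per 1000 cells) were removed as doublets. With scanpy 1.11.5, counts scaled to 10000 per cell were logged. The 2000 most variable genes, without the 5 genes, other Notch pathway genes, sex-linked, mitochondrial and reporter genes, gave 30 principal components and 15 neighbours for Leiden clustering at resolution 1, and sub-clusters at 0.5. Clusters were named by the median scaled level of 13 marker lists. Counting sub-list markers with their class, and using the median, were chosen after the clusters were seen. The 5 genes, the lists and the tests were chosen with earlier results of these data known.

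UMIs were summed per library and class and tested with edgeR 4.0.16 (TMM, filterByExpr, quasi-likelihood, library as a block; 11 residual degrees of freedom for 12 classes and 20 for 21), with Benjamini-Hochberg adjustment over all genes and a threshold of 0.05. The library block pairs classes from the same kidney cells. SE is the absolute log2 fold change over the root of F. On data simulated for early nephron against nephron progenitor (14852 genes), 100 of 100 genes changed 4-fold and 90 of 100 changed 2-fold were called, with 9 false calls. The changed genes were drawn only from better counted ones, so this recovery does not cover genes as low as Dll4 and Jag2 in these classes. Intervals are exact (Poisson or Clopper-Pearson, 95%) and cover counting error only, and the limit for no UMI is 3 counts. Named pathway genes are the 2 called with the largest change per role. Alternatives were DESeq2 1.42.0, no filter, no TMM, no block, each library alone, other UMI, mitochondrial and doublet settings, other resolutions and a per-cell marker gate. Clusters were also named without counting sub-list markers with their class, and by the mean marker score in place of the median. The cluster naming rules and the glomerular and early podocyte comparisons were added after values were seen.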

Additional observations from a re-analysis of the deposited data

Results flagged for a closer look

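Signals outside the named classes were found in cells that entered no comparison. One unnamed cluster (147 and 110 cells) was led by the contractile genes Tagln and Acta2 but also held the podocyte genes Wt1 (745 and 979 CPM) and Nphs1 (201 and 125 CPM). Its mean level was 10.5 CPM for Dll1, 46.2 for Jag1 and 28.3 for Lfng, each above the limit that no UMI would allow in both libraries. These levels were noticed because the cells lie outside every class compared. Barcodes of 10 to 100 UMIs, too few for a cell to be called, gave a mean of 35.5 CPM for Jag1 and 22.4 for Lfng. They also held 15.7 and 6.05 CPM of Dll1 and 7.85 and 4.84 of Dll4, from 12 and 5 and from 6 and 4 UMIs.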

How the results depend on the processing

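Of 621 tested alternative values for 45 results on the 5 genes, 582 kept their sign and their side of the threshold, and 9 changed sign without being called under either setting. Naming by the mean marker score was among these alternatives and gave the same fits as the main setting, so its values could only agree. All values here are log2 differences or counts of genes called. At a mitochondrial limit of 5%, proximal tubule against early nephron reversed to 1.11 for Dll1 and 0.97 for Lfng, while Jag1 was near 0 (0.026, adjusted p = 0.904) and lost its call, and the cause was not tested. Without the library block, glomerular Jag2 was 0.85 (adjusted p = 0.0614) and lost its call. It also lost it at a minimum of 1000 UMIs (0.48), at a mitochondrial limit of 20% (0.41), without doublet removal (0.56), without cells of over 50000 UMIs (0.76), at resolution 2 (0.81) and with a per-cell marker gate (0.72). That gate also ended the glomerular calls of Dll1 (-0.60) and Lfng (-0.45), and Lfng lost its call at resolution 0.5 (-0.71) and without TMM (-0.63). Glomerular Jag1 gained a call at a mitochondrial limit of 20% (-1.28) and without doublet removal (-0.98). Arterial Lfng gained one at a minimum of 1000 UMIs (0.75), at a mitochondrial limit of 5% (0.90) and with the gate (0.60). Dll1 at the ureteric tip gained one at a minimum of 1000 UMIs (-1.45), without doublet removal (-1.46), at resolution 0.5 (-1.37), with DESeq2 (-1.37) and without a filter on low counts (-1.30). Jag1 lost its call in early distal cells at a mitochondrial limit of 20% (-0.28) and without doublet removal (-0.26), in early podocytes at these settings (-0.029 and -0.18) and at a minimum of 1000 UMIs (-0.16), and in the proximal tubule against the mean at resolution 0.5 (0.26).

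Genes called fell from 7076 to 4655 for early nephron against progenitor and from 8597 to 3936 for proximal tubule at a mitochondrial limit of 5%, from 1659 to 634 for arterial cells when sub-list markers were not counted with their class, from 2982 to 1565 for glomerular cells with the gate, and from 5380 to 3254 at the ureteric tip without cells of over 50000 UMIs. They rose from 2434 in early distal cells to 3802 at a minimum of 5000 UMIs, 4900 at a mitochondrial limit of 20%, 4059 without doublet removal and 4831 at resolution 2. In early podocytes they rose from 3495 to 6201 at a minimum of 1000 UMIs, 6870 at a mitochondrial limit of 20%, 6054 without doublet removal and 6112 at resolution 2. With 1 library left out no test was possible, for want of residual degrees of freedom, and no called value, but 1 uncalled one of 90, changed sign. Some classes were not found under some settings, and those comparisons have no value: at a mitochondrial limit of 5% these were the distal tubule, loop of Henle, early distal, early podocyte, glomerular and ureteric comparisons. The distal tubule was also not found at a minimum of 5000 UMIs, at resolutions 0.5 and 2 and without cells of over 50000 UMIs, nor the loop of Henle at resolution 0.5. The early distal and early podocyte comparisons lacked values under other settings too. Each had 14 alternatives, against 17 for early nephron against nephron progenitor. Depth limits Dll4 and Jag2 outside the endothelium, where each rested on few UMIs.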
